A study of Mus musculus with 7 samples.

Results

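The Foxp2 layer 6 neurons are 6981 segmented cells of mouse brain hemisections that carried the transcript signature of layer 6 corticothalamic neurons. A cell was counted among them when it held at least 5 transcripts of Slc17a7, at least 4 of Foxp2, at least 2 of Syt6 and Rprm together, at most 2 of Cplx3, at most 2 of Slc17a6 and at most 3 of Gad1 and Gad2 together. The measured counts of these 8 genes therefore chose the cells, and their levels are given below as a description with no test. The 6981 cells made up 1.82% of all 384076 segmented cells. They were 9.15% of the 76305 cortical-type excitatory cells, here called Slc17a7 neurons, which met the same limits on Slc17a7, Slc17a6, Gad1 and Gad2.

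Corticothalamic neurons of layer 6 are excitatory cells of the deepest full layer of the cerebral cortex. Their axons return to the thalamus and, on the way, give branches to the thalamic reticular nucleus, and their local axons reach back into the upper cortical layers. They use the vesicular glutamate transporter Slc17a7 (VGLUT1), whereas most thalamic relay neurons use Slc17a6 (VGLUT2). The transcription factor Foxp2, the synaptotagmin Syt6, the cell cycle regulator Rprm (reprimo) and the corepressor Tle4 are widely used to mark them. Below them lies layer 6b, a thin sheet of Cplx3 and Ccn2 cells that derives in large part from the embryonic subplate.

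The study examined neurons of the anterior thalamic nuclei by Xenium, an imaging assay that decodes single RNA molecules with gene-specific probes in tissue sections and assigns them to segmented cells. Hemisections of fresh frozen wild-type (WT) brain, 10 µm thick, were taken at 3 positions: anterior (bregma -0.58 mm, 2 sections), intermediate (bregma -0.70 to -0.82 mm, 2 sections) and posterior (bregma -0.94 mm, 3 sections). The labels name no treatment, age or sex. The labels do not say that the sections came from separate animals, so the p-values below measure the spread between sections only.

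The panel held 297 genes, and the sections held 17438577 to 23432215 transcripts in 50169 to 60720 cells. By section, 999 and 1016 of the Foxp2 layer 6 neurons lay in the anterior, 1113 and 1029 in the intermediate and 947, 885 and 992 in the posterior sections. Their median depth was 515 transcripts per cell, with section medians of 496 to 541, and the lowest value belonged to an intermediate section. Negative control probes gave 0.401 counts per Foxp2 layer 6 neuron, or at most 0.0668 per probe and cell when divided by 6, the most control probes seen in any 1 cell. Sections shared 8 barcode stems, and none of these 8 pairs of cells had identical counts or lay among the Foxp2 layer 6 neurons. Segmented cells can hold transcripts of their neighbours, and cell positions were not used here. Levels are mean transcripts per cell in a section, and because probes differ in yield, levels of different genes are not set against each other.

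Slc17a7, Foxp2, Syt6 and Rprm each took a wide range within the rule, whereas Cplx3, Slc17a6 and Gad2 had a median of 0. Foxp2 averaged 8.02 transcripts per cell with a median of 7, and its section means had a lowest, median and highest value of 7.65, 8.01 and 8.28. Rprm had section means of 10.9, 12.0 and 13.2 and Syt6 of 4.64, 4.81 and 5.27, in the same order. All 7 sections lay close together for these 3 genes. The cells carried Syt6 and Rprm mostly side by side: 91.2% had at least 1 transcript of both, 5.24% had Rprm only and 3.54% had Syt6 only. Syt6 was found in 94.8% and Rprm in 96.5% of the Foxp2 layer 6 neurons, which these genes helped to choose. In the Cplx3, Fezf2 and Rorb neurons described below, Syt6 was found in 42.4%, 22.8% and 14.1%. Rprm was found in 53.1%, 56.3% and 35.0% of them, in the same order. The exclusion genes were low but not at 0, with Cplx3 in 26.4% and Slc17a6 in 16.8% of cells.

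Tle4, a corepressor of the Groucho family and the marker that the rule did not use, was found in 99.3% of the cells. Its section means had a lowest, median and highest value of 7.0, 7.30 and 8.07 transcripts per cell. Garnl3, which carries a Rap-GAP-like domain, had 15.9, 17.4 and 18.3, and Sox5, a transcription factor that controls the timing of deep-layer neuron generation, had 4.04, 4.42 and 4.46. None of the 7 sections stood apart for any of these 3 genes. Tle4 was also found in 95.4% of Cplx3 neurons, 72.9% of Fezf2 neurons and 67.9% of Rorb neurons, so presence alone did not separate the classes. Ntsr1, Hs3st4 and Sulf1, other genes used for these neurons, were not analysed here, and no value bears on where the axons of these cells went.

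**Figure D1:**
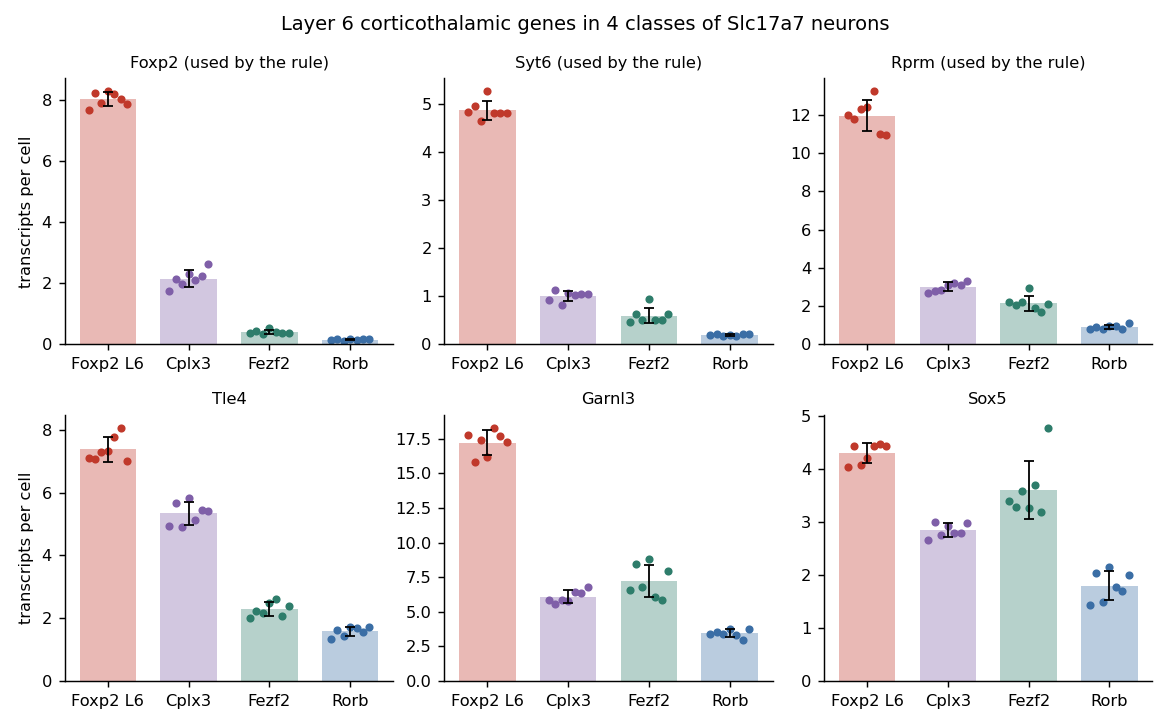
Mean transcripts per cell of layer 6 corticothalamic genes in each of the 7 sections, for the Foxp2 layer 6, Cplx3, Fezf2 and Rorb neurons; bars are means over the 7 sections with their SD, and each point is 1 section. Foxp2, Syt6 and Rprm chose the first class, whereas Tle4, Sox5 and Garnl3 did not; Tle4 ranged over 7.0 to 8.07 in the Foxp2 layer 6 neurons and reached at most 5.85 in any section of the other classes.

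The rule was a threshold on a continuous count. Of 144175 cells with at least 5 Slc17a7 transcripts, 12180 had at least 4 of Foxp2; the Syt6 and Rprm criterion then removed 1134, the Cplx3 limit 1083, the Slc17a6 limit 507 and the Gad limit 2475. Cells that met every other criterion and held exactly 3 Foxp2 transcripts, just outside the rule, numbered 1370 and averaged 4.90 Tle4 and 10.7 Garnl3 transcripts. The 1117 cells just inside, with exactly 4, averaged 5.96 Tle4 and 12.8 Garnl3 transcripts. Cells just outside the rule therefore carried both genes as well.

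Per 1000 transcripts of a cell, which takes its depth into account, Garnl3, Tle4 and Igfbp4 changed most below the threshold, whereas Rprm, Ccn2 and Arc also changed within the rule. Garnl3 stood at 7.29 in the 13329 cells without Foxp2, 25.2 at 3 Foxp2 transcripts, 28.8 at 4, 33.7 at 7 to 9 and 34.2 at 15 to 31. Tle4 stood at 3.06, 11.5, 13.5, 14.5 and 13.8 in the same groups, and Igfbp4, an insulin-like growth factor binding protein, at 3.32, 12.3, 14.1, 16.9 and 17.6. Within the rule, these 3 genes therefore moved little while Foxp2 itself grew severalfold. The upper-layer transcription factor Cux2 ran the other way, with 5.48 in cells without Foxp2, 1.66 at 3 transcripts and 1.43 at 15 to 31. Rprm, a gene of the rule, stood at 11.5, 14.3, 16.5, 22.1 and 33.2 in the 5 groups. The criterion on Syt6 and Rprm itself raised the value in cells without Foxp2. Over cells that met all criteria but this one, Rprm stood at 3.704 without Foxp2 and 11.92 at 3 Foxp2 transcripts. It stood at 21.69 at 7 to 9 and 33.06 at 15 to 31, so Rprm rose both below and within the threshold. Ccn2 stood at 0.436, 0.937, 1.13, 0.513 and 0.366, and Arc at 19.5, 37.5, 40.8, 39.0 and 25.7, both lower at the highest Foxp2 counts than just inside the threshold. Median depth was 450, 393, 425, 518 and 683 transcripts per cell in these groups, so cells with more Foxp2 also held more transcripts in all. All other values here are for cells that had met the criterion on Syt6 and Rprm, and no test was made.

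**Figure D2:**
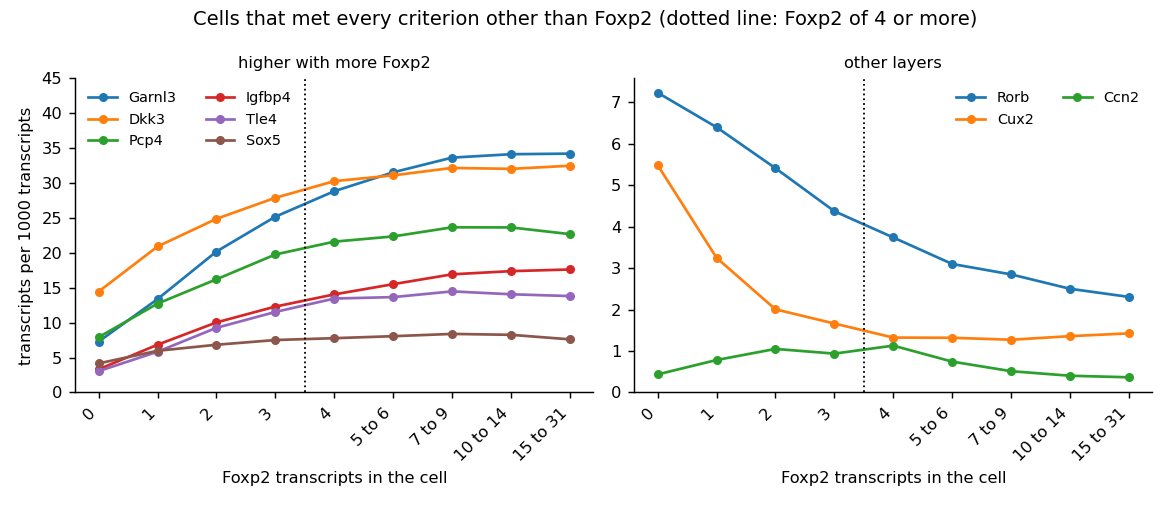
Transcripts of each gene per 1000 transcripts of a cell (vertical axis) against the number of Foxp2 transcripts (horizontal axis, in bins), over cells that met all other criteria; the dotted line marks the threshold of 4. Tle4, Garnl3, Dkk3 and Igfbp4 were higher, and Rorb and Cux2 lower, in bins with more Foxp2, with most of the difference below the threshold.

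The cells were next set against 3 other classes of Slc17a7 neurons from the same sections, defined by transcripts of 1 gene each, to ask which of the remaining genes set them apart. The classes were 3970 Cplx3 neurons (at least 4 Cplx3 transcripts), 2157 Fezf2 neurons (at least 4 of Fezf2, a transcription factor of deep-layer projection neurons) and 21237 Rorb neurons (at least 4 of Rorb, a nuclear receptor of layer 4). Fezf2 and Rorb neurons held at most 2 transcripts of each other's gene, of Foxp2 and of Cplx3. The Cplx3 neurons had no limit on Foxp2, Syt6, Rprm, Fezf2 or Rorb. Foxp2 was found in 60% of the Cplx3, 30.4% of the Fezf2 and 12.9% of the Rorb neurons, so the 3 comparisons are not alike in this. Counts were summed per section and class and tested with edgeR's quasi-likelihood test, with section as a block and Benjamini-Hochberg adjustment at 0.05, and differences are log2 values with their standard errors, Foxp2 layer 6 neurons minus the other class. The 10 genes used by any class rule are left out of the counts. The comparisons share the sums of the Foxp2 layer 6 neurons and are not independent of each other. Median depth was 433, 501 and 428 transcripts per cell in the Cplx3, Fezf2 and Rorb neurons, against 515 in the Foxp2 layer 6 neurons. Levels and list sums per cell are not scaled for this depth. Control probes gave 1.08, 0.208 and 0.221 counts per cell in the same order, against 0.401. In the Cplx3 neurons they ranged over 0.481 to 1.79 by section, and their part in the differences was not tested.

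Against the Cplx3 neurons, the Foxp2 layer 6 neurons were higher in Lamp5, Igfbp4, Igfbp6 and Myl4 and lower in Ccn2, Nrp2, Inpp4b and Tmem163. Ccn2, a matricellular protein that marks layer 6b, had section means of 0.266, 0.310 and 0.415 transcripts per cell (lowest, median and highest) in the Foxp2 layer 6 neurons and 8.79, 9.38 and 10.8 in the Cplx3 neurons. The ranges were far apart: the Foxp2 layer 6 neurons were 24.6-fold lower (-4.62 ± 0.086, edgeR adjusted p = 3.81e-24). Nxph3, a neurexophilin that binds neurexins, was lower but far from absent, with 5.80, 5.98 and 6.68 in the Foxp2 layer 6 neurons and 12.9, 13.5 and 14.4 in the Cplx3 neurons (-0.89 ± 0.055). The Wnt agonist Rspo2 was lower by 1.91-fold (-0.93 ± 0.072), so all 3 tested genes of the layer 6b list were lower, beside 46.1% of all genes. The layer 6 corticothalamic genes went the opposite way: Tle4 was higher by 0.74 ± 0.049, Sox5 by 0.87 ± 0.057 and Garnl3 by 1.78 ± 0.079, each in 7 of 7 sections.

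Of 284 genes tested against the Cplx3 neurons, 232 passed (81.7%), 101 of them higher (35.6%) and 131 lower (46.1%) in the Foxp2 layer 6 neurons. Lamp5, a membrane protein of endosomes and synaptic vesicles, averaged 2.96 ± 0.345 transcripts per cell in the Foxp2 layer 6 neurons and 0.624 ± 0.104 in the Cplx3 neurons (SD, n = 7 sections each; 2.52 ± 0.090, edgeR adjusted p = 2.79e-18). The growth factor binders Igfbp6 (2.22 ± 0.050) and Igfbp4 (2.0 ± 0.076), the ubiquitin ligase Rnf152 (2.26 ± 0.078), the myosin light chain Myl4 (2.15 ± 0.12), the T cell receptor constant region Trbc2 (2.07 ± 0.12) and the AMPA receptor partner Syndig1 (1.98 ± 0.076) were higher in all 7 sections. Kctd8, Pln and Npnt were also among the 10 largest, but their Cplx3 levels were at or under the control probe bound, and their fold is not read. On the lower side, the semaphorin receptor Nrp2 averaged 0.109 in the Foxp2 layer 6 neurons and 1.18 in the Cplx3 neurons (-3.18 ± 0.20). The phosphoinositide phosphatase Inpp4b (-3.04 ± 0.089), the zinc transporter Tmem163 (-2.75 ± 0.10), Zcchc12 (-2.33 ± 0.13), the glycosyltransferase Galnt14 (-2.07 ± 0.073) and the calcium-binding Cabp7 (-2.03 ± 0.21) were lower in all 7 sections. Spag16, Fmod and Fign completed the 10 lowest, at or under the bound in the Foxp2 layer 6 neurons.

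Against the Fezf2 neurons, the Foxp2 layer 6 neurons were higher in Sla, Gadd45a, Ppp1r1b and Tle4 and lower in Vat1l, Pou3f1, Bhlhe22 and Pdzrn3. Vat1l, a marker of extratelencephalic layer 5 neurons, had section means of 0.235, 0.250 and 0.338 transcripts per cell in the Foxp2 layer 6 neurons and 2.18, 2.52 and 2.78 in the Fezf2 neurons. No section of either class reached the range of the other, and the difference was -3.04 ± 0.093 (edgeR adjusted p = 1.09e-19). Sla, the Src-like adaptor, averaged 0.948 ± 0.101 in the Foxp2 layer 6 neurons and 0.133 ± 0.0310 in the Fezf2 neurons (SD, n = 7 sections each; 3.09 ± 0.12). The stress-responsive gene Gadd45a had 3.66, 4.14 and 5.50 in the Foxp2 layer 6 neurons and 0.752, 0.991 and 1.45 in the Fezf2 neurons, again with no overlap (2.31 ± 0.10).

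In all, 235 of 284 genes passed against the Fezf2 neurons (82.7%), 95 higher (33.5%) and 140 lower (49.3%). Next to Sla, Gadd45a and Tle4 (1.95 ± 0.051), the dopamine-regulated phosphatase inhibitor Ppp1r1b (DARPP-32, 2.09 ± 0.060), the GTPase-activating protein Arhgap25 (1.91 ± 0.079), the small GTPase Rasl10a (1.89 ± 0.071), Trbc2 (1.87 ± 0.12), the calcium pump inhibitor phospholamban (Pln, 1.87 ± 0.22), the repulsive guidance ligand Sema3a (1.86 ± 0.10) and the GATA cofactor Zfpm2 (1.76 ± 0.093) were higher in all 7 sections. On the lower side stood the transcription factors Pou3f1 (-2.79 ± 0.085) and Bhlhe22 (-2.75 ± 0.10), the ubiquitin ligase Pdzrn3 (-2.48 ± 0.092), Parm1 (-2.39 ± 0.072), Plcxd2 (-2.33 ± 0.058), the secreted protein Nell1 (-2.33 ± 0.11) and the Robo ligand Slit2 (-2.29 ± 0.12). Npy2r and Pdyn were also among the lowest, at or under the control probe bound in the Foxp2 layer 6 neurons. Of 7 layer 5 genes tested, 5 were lower (Vat1l, Pou3f1, Parm1, Deptor and Vwc2l) and 2 higher: Bcl11b (CTIP2) by 0.33, which did not pass under library size (0.12, edgeR adjusted p = 0.147), and the muscarinic receptor Chrm2 by 0.44. Sox5 was higher by 0.51 ± 0.057, but its section levels overlapped, with 4.04 to 4.46 in the Foxp2 layer 6 neurons and 3.18 to 4.77 in the Fezf2 neurons. The summed hippocampal list ranged over 14.2 to 16.7 transcripts per cell in the Foxp2 layer 6 neurons and 15.3 to 32.7 in the Fezf2 neurons, highest in posterior replicate 1, and its part in these differences was not tested.

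Against the Rorb neurons, the Foxp2 layer 6 neurons were higher in Nxph3, Gadd45a, Arhgap25 and Trbc2 and lower in Thsd7a, Rspo1, Car4 and Rasgrf2. Nxph3 had section means of 5.80, 5.98 and 6.68 transcripts per cell in the Foxp2 layer 6 neurons and 0.408, 0.440 and 0.481 in the Rorb neurons. The ranges did not approach each other, and the difference of 4.08 ± 0.062 (16.9-fold, edgeR adjusted p = 3.24e-26) was the largest upward one in this comparison among genes outside the rules. Cux2, a transcription factor of upper-layer neurons, had 0.469, 0.696 and 0.882 in the Foxp2 layer 6 neurons and 3.56, 4.13 and 5.13 in the Rorb neurons (-2.31 ± 0.11). Of 6 layer 2 to 4 genes tested, 5 were lower, namely Rspo1, Rasgrf2, Calb1, Cux2 and Lamp5, beside 52.8% of all genes.

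Of 284 genes, 254 passed against the Rorb neurons (89.4%), 104 higher (36.6%) and 150 lower (52.8%). Gadd45a (3.99 ± 0.10), Arhgap25 (3.75 ± 0.082), Trbc2 (3.54 ± 0.12), the collagen chain Col6a1 (3.5 ± 0.10), Sla (3.46 ± 0.10), Rnf152 (3.36 ± 0.079), the adhesion molecule Sdk2 (3.34 ± 0.061), the receptor partner Ramp3 (3.31 ± 0.089) and Myl4 (3.30 ± 0.12) followed Nxph3, each in all 7 sections. The lowest were the membrane protein Thsd7a (-3.38 ± 0.11), the Wnt agonist Rspo1 (-3.36 ± 0.12), the carbonic anhydrase Car4 (-3.25 ± 0.13), the exchange factor Rasgrf2 (-3.10 ± 0.092), Pdzrn3 (-3.05 ± 0.091), Bhlhe22 (-2.97 ± 0.10), calbindin Calb1 (-2.85 ± 0.092) and the myosin Myo16 (-2.84 ± 0.069), with Ndst4 and Sox17 at or under the control probe bound. Rasgrf2, for example, averaged 0.359 ± 0.0554 transcripts per cell in the Foxp2 layer 6 neurons and 3.76 ± 0.413 in the Rorb neurons (SD, n = 7 sections each). Tle4 (2.52 ± 0.051), Garnl3 (2.62 ± 0.081) and Sox5 (1.56 ± 0.057) were higher without overlap of the section ranges.

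**Figure D3:**
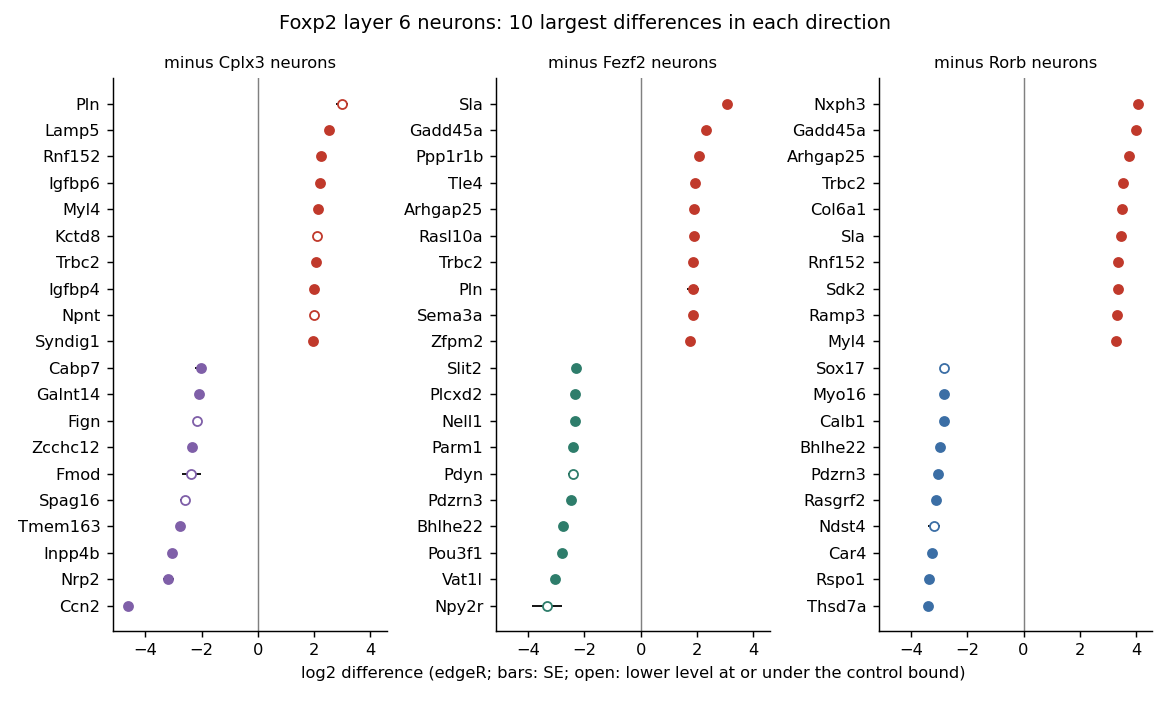
Log2 difference (horizontal axis, bars are SE) of the 10 largest differences in each direction, Foxp2 layer 6 neurons minus Cplx3, Fezf2 or Rorb neurons; values right of 0 are higher in the Foxp2 layer 6 neurons, and open symbols mark genes whose lower level was at or under the control probe bound. Ccn2 at -4.62 against the Cplx3 neurons and Nxph3 at 4.08 against the Rorb neurons lie farthest from 0.

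Directions near 0 depended on the scaling. The median log2 difference over all genes was −0.24, −0.23 and −0.37 against the Cplx3, Fezf2 and Rorb neurons under TMM scaling, −0.06, 0.04 and 0.00 under DESeq2 size factors, and −0.72, −0.44 and −0.85 under library size. The share of passing genes that were higher was 43.5%, 40.4% and 40.9% under TMM, 50.6%, 51.7% and 51.2% under DESeq2 and 27.3%, 29.7% and 26.9% under library size. The 20 genes with the largest differences per comparison kept their direction and passed in all 278, 279 and 279 pairs of a gene and an alternative that gave a value. Pln, Fmod and Sox17 are on the vascular and meningeal list and had no value where the glial and vascular genes were left out.

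Over all 284 genes tested, 35.6%, 33.5% and 36.6% were higher and 46.1%, 49.3% and 52.8% lower against the Cplx3, Fezf2 and Rorb neurons, and the counts of the lists are read against these shares. The summed markers of vessels, oligodendrocytes and microglia were lower in the Foxp2 layer 6 neurons than in each of the other classes, and those of astrocytes were lower than in the Cplx3 and Rorb neurons. All 20 vascular and meningeal genes together gave 1.86 to 2.79 transcripts per cell over the sections of the Foxp2 layer 6 neurons, against 4.69 to 6.27 in Cplx3, 4.0 to 6.42 in Fezf2 and 7.94 to 13.8 in Rorb neurons. Of these genes 16, 13 and 18 were lower and 1, 2 and 1 higher against the Cplx3, Fezf2 and Rorb neurons. The 9 astrocyte genes summed to 8.10 to 10.6 in the Foxp2 layer 6 neurons, 11.7 to 14.8 in the Cplx3, 9.05 to 11.4 in the Fezf2 and 18.8 to 28.3 in the Rorb neurons, and 6, 1 and 9 were lower and 0, 5 and 0 higher against these classes, with a list median against the Fezf2 neurons of 0.11 that turned to −0.09 under library size. The 6 oligodendrocyte lineage genes summed to 2.85 to 3.33 in the Foxp2 layer 6 neurons, against 7.32 to 8.97, 3.38 to 4.90 and 3.51 to 5.07 in the Cplx3, Fezf2 and Rorb neurons, with 6, 4 and 4 lower and 0, 0 and 1 higher. The 7 microglia and macrophage genes summed to 1.86 to 2.17, against 3.16 to 4.35, 2.25 to 4.12 and 3.16 to 5.35 in the same order, and all 7 were lower in each comparison. No marker of these lists was at 0 in the Foxp2 layer 6 neurons. Fmod and Sox17, named above, are also expressed by meningeal and vessel cells. The part of the glial and vascular transcripts in the neuronal differences was not tested. Rorb, the gene that chose the Rorb neurons, itself went with astrocyte genes across the Foxp2 layer 6 neurons. Among the astrocyte genes with at least 0.5 transcripts per cell, its median r was highest with Acsbg1 (0.455), Slc39a12 (0.441), Ntsr2 (0.429) and Aqp4 (0.389). How far the rule of the Rorb neurons set their astrocyte levels was not tested.

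Grouped by function, most cortical transcription factors were higher in the Foxp2 layer 6 neurons (in this and the following paragraphs, 3 values in a row refer to the Cplx3, Fezf2 and Rorb neurons in this order). Of 16 tested, 10 were higher and 2 lower against the Cplx3 neurons, 11 and 3 against the Fezf2 neurons, and 10 and 5 against the Rorb neurons. The list medians were 0.55, 0.35 and 0.42, where all genes had −0.24, −0.23 and −0.37; under library size the median against the Rorb neurons was −0.05. Meis2, a homeodomain factor, had section means of 8.49, 9.23 and 9.77 transcripts per cell in the Foxp2 layer 6 neurons and averaged 3.15, 4.01 and 3.76 in the Cplx3, Fezf2 and Rorb neurons, with differences of 1.81, 1.45 and 1.61. Foxp1, the close relative of Foxp2, was higher by 1.36, 0.37 and 0.48, but under library size the difference was 0.17 against the Fezf2 neurons and 0.01 against the Rorb neurons, where it did not pass (edgeR adjusted p = 0.887). The GATA cofactor Zfpm2 was higher by 0.81, 1.76 and 3.13. Bhlhe22 was the counterexample, lower with differences of -0.78, -2.75 and -2.97. Several members of the list, such as Tle4, Sox5 and Cux2, are also in the layer lists.

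The guidance and adhesion genes were read beside the 46.1%, 49.3% and 52.8% of all genes that were lower and the 35.6%, 33.5% and 36.6% that were higher. Of 22 tested, 12, 15 and 11 were lower and 4, 7 and 9 higher against the Cplx3, Fezf2 and Rorb neurons. The list medians were −0.27, −0.47 and −0.22, where all genes had −0.24, −0.23 and −0.37. Under DESeq2 size factors the last list median was 0.15, where all genes had 0.00. Sema3a and Cdh9 were higher in every comparison. The secreted semaphorin Sema3a had 2.10, 2.43 and 2.75 transcripts per cell over the sections (1.05, 1.86 and 1.37), and the cadherin Cdh9 0.982, 1.16 and 1.39 (1.42, 1.43 and 2.35). Nrp2, whose product is part of receptors for class 3 semaphorins, was lower in each (-3.18, -1.85 and -2.04). Cdh13, a cadherin anchored to the membrane by a lipid, was lower against 2 of the classes: it averaged 1.45 transcripts per cell in the Foxp2 layer 6 neurons, against 5.45 in the Cplx3 (-1.63) and 2.74 in the Fezf2 neurons (-0.67).

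Channels and transmitter receptors were more often higher than all genes (35.6%) against the Cplx3 neurons and near their shares (33.5% and 36.6%) against the Fezf2 and Rorb neurons, with 9, 6 and 6 of 16 higher and 5, 8 and 6 lower and list medians of 0.27, −0.18 and 0.01 that changed sign with the scaling. The serotonin receptor Htr1f had 2.37, 2.54 and 2.69 transcripts per cell over the sections and was higher in each comparison (1.16, 0.65 and 2.47). The kainate receptor partner Neto2 was likewise higher (0.39, 0.64 and 1.58), the first of which turned to -0.10 under library size, and the kainate receptor subunit Grik3 was higher against the Fezf2 (1.17) and Rorb neurons (3.07). Against the Cplx3 neurons Grik3 passed at 0.10, but its sign turned to -0.39 under library size. The serotonin receptor Htr2c was lower in each (-0.57, -1.44 and -1.29). Among the vesicle release genes, 4, 3 and 1 of 9 were higher and 4, 6 and 6 lower (list medians −0.14, −0.85 and −0.54, the first at 0.04 under DESeq2 size factors), with Syt17 lower in all 3 comparisons.

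Secreted factors and their binders stood near the shares over all genes (35.6%, 33.5% and 36.6% higher), with 7, 7 and 8 of 19 higher and 10, 9 and 10 lower (list medians −0.41, 0.12 and −0.29, the second at −0.08 under library size and the last at 0.09 under DESeq2 size factors). Igfbp4 (8.05, 8.64 and 9.10 transcripts per cell over the sections), Igfbp6 (2.03, 2.11 and 2.65) and the Dickkopf family member Dkk3 (15.5, 16.6 and 17.9) were higher against every class. Dkk3 differed by 1.20, 0.54 and 1.68 from the Cplx3, Fezf2 and Rorb neurons. Of 14 neuropeptide and receptor genes, 2, 5 and 6 were higher and 7, 4 and 7 lower, where all genes had 46.1%, 49.3% and 52.8% lower (list medians −0.25, 0.15 and −0.42, the second at −0.05 under library size). Ramp3, which modifies receptors for calcitonin gene-related peptides, was higher in each (1.34, 1.22 and 3.31), and the opioid receptor Oprm1 was lower against the Cplx3 (-1.21) and higher against the Rorb neurons (1.14).

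Markers of neurons outside the cortical excitatory classes were also summed, and the counts of these short lists, beside 35.6%, 33.5% and 36.6% of all genes higher and 46.1%, 49.3% and 52.8% lower, are given as a description. The 11 genes of the GABAergic list summed to 4.98 to 5.92 transcripts per cell in the Foxp2 layer 6 neurons, against 2.26 to 2.60 in the Cplx3, 9.0 to 10.9 in the Fezf2 and 7.98 to 9.19 in the Rorb neurons, where the rules of all 4 classes limited Gad1 and Gad2. Lamp5, a member of this list that is also on the layer 2 to 4 list, held a large part of these sums. It averaged 2.96 transcripts per cell in the Foxp2 layer 6 neurons and 0.624, 5.74 and 5.51 in the Cplx3, Fezf2 and Rorb neurons. Of the 9 GABAergic list genes outside the rules, 4, 2 and 3 were higher and 2, 4 and 4 lower. The 7 genes of the thalamic list summed to 4.65 to 5.46 in the Foxp2 layer 6 neurons, against 3.0 to 3.49, 4.50 to 6.23 and 3.54 to 4.24 in the Cplx3, Fezf2 and Rorb neurons, and of the 6 outside the rules 2, 2 and 3 were higher and 2, 3 and 1 lower. The 5 genes of the striatal list summed to 12.6 to 14.3 in the Foxp2 layer 6 neurons, above the 6.84 to 7.29, 4.80 to 6.85 and 4.96 to 8.08 of the other classes, and 2, 4 and 3 were higher and 2, 1 and 2 lower. Its members Meis2 and Ppp1r1b, higher in each comparison, are not confined to striatum, and Ppp1r1b (DARPP-32) had section means of 3.04, 3.54 and 3.84 in the Foxp2 layer 6 neurons and differed by 1.06, 2.09 and 1.23.

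The activity-regulated genes were all higher against the Cplx3 neurons (5 of 5), but not against the other classes (2 higher and 2 lower against Fezf2, 3 and 2 against Rorb neurons), with list medians of 0.81, 0.26 and 0.49 that were 0.33, 0.05 and 0.01 under library size. Over all genes, 35.6%, 33.5% and 36.6% were higher. Arc, the immediate early gene of synaptic plasticity, had 16.7, 18.9 and 23.7 transcripts per cell over the sections of the Foxp2 layer 6 neurons. It averaged 7.62 ± 1.18 in the Cplx3, 13.7 ± 2.95 in the Fezf2 and 14.6 ± 1.99 in the Rorb neurons (SD, n = 7 sections each), and the Foxp2 layer 6 neurons were higher by 1.63, 0.76 and 0.71. Bhlhe40 was higher against the Cplx3 neurons (0.81) and lower against the Fezf2 (-1.34) and Rorb neurons (-1.08). For Bdnf and Gadd45a against the Cplx3 neurons (0.48 and 0.23), the sign turned under library size.

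Position along the anterior to posterior axis was no part of the rule. No gene of 286 passed between posterior and anterior sections with edgeR's quasi-likelihood test (0%), 27 had an unadjusted p under 0.05, and DESeq2 called 0 with 23 such genes. The median absolute log2 difference was 0.0977, its 95th percentile was 0.432, and no gene exceeded 1. Tle4, Garnl3 and Sox5 differed by 0.013 to 0.042 on the log2 scale. With the replicate number as a block, 1 gene passed: Plcxd3 (0.29 ± 0.074, edgeR adjusted p = 0.0412). That fit has 1 residual degree of freedom and its contrast rests on replicate 1, since posterior replicates 3 and 4 have no anterior section.

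The 5 genes with the smallest p in the position comparison did not pass. Fos, an immediate early gene, had 1.17 and 0.907 transcripts per cell in the anterior, 1.19 and 1.13 in the intermediate and 1.47, 1.51 and 1.53 in the posterior sections. The posterior values all lay above the others (0.47 ± 0.13, edgeR adjusted p = 0.435), and only without anterior replicate 1 did the gene pass (0.72, adjusted p = 0.0145; range over all alternatives 0.0145 to 0.989). Arc had 18.1 and 16.7 in the anterior, 17.6 and 19.4 in the intermediate and 18.9, 23.7 and 21.4 in the posterior sections, so that 1 intermediate section exceeded a posterior one (0.23 ± 0.073). Myl4 ran the other way, with 3.78 and 4.23 in the anterior, 3.60 and 4.30 in the intermediate and 3.58, 3.51 and 3.35 in the posterior sections (−0.26 ± 0.068, edgeR adjusted p = 0.435). Calb1 (0.46) and the growth factor receptor Pdgfra (0.37) made up the 5. Pdgfra is on the oligodendrocyte lineage list and averaged 0.448 transcripts per cell in posterior and 0.332 in anterior sections. The part of neighbouring cells in this was not tested. By list, the 5 activity-regulated genes had a median of 0.22 with 3 unadjusted p under 0.05, and the 7 layer 2 to 4 genes a median of 0.31 with 4. Over all 286 genes the median was 0.01, and 27 had an unadjusted p under 0.05. These lists had the largest medians among 20 lists, and no gene of any list passed. Posterior replicates 3 and 4 lay on a slide of their own; with slide as a term, and on the first slide alone, no gene passed.

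**Figure D4:**
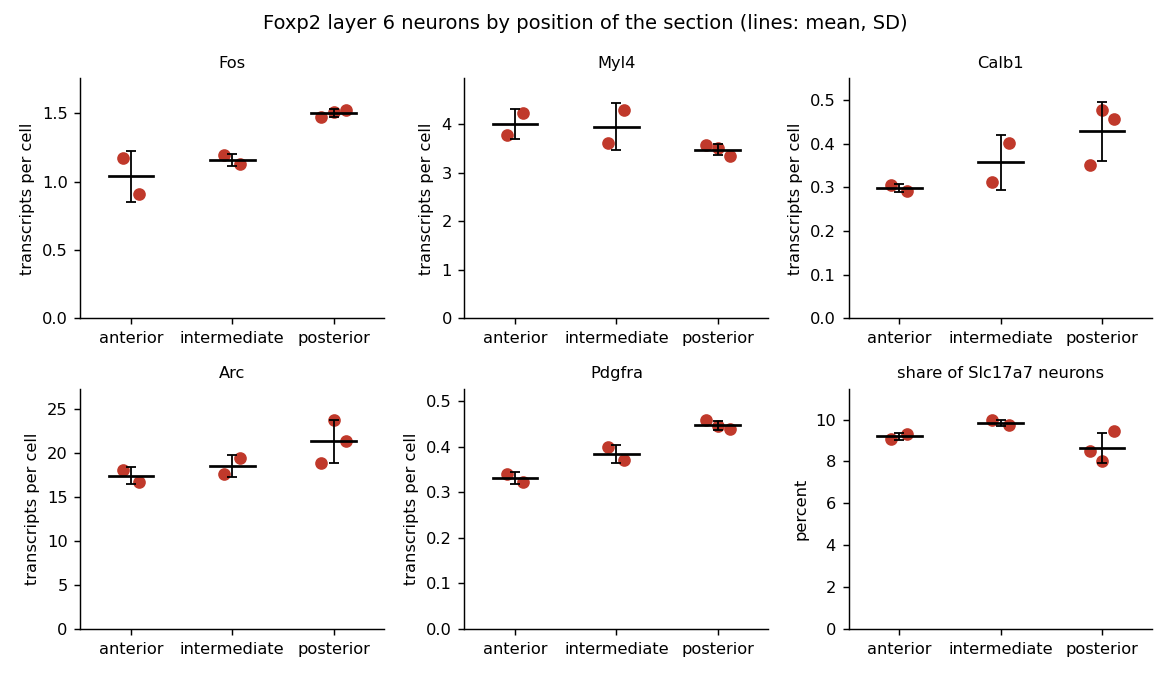
Mean transcripts per cell in each of the 7 sections of the Foxp2 layer 6 neurons, ordered anterior, intermediate, posterior, for the 5 genes with the smallest p in the posterior against anterior comparison, with the share of Slc17a7 neurons in the last panel; lines are means and bars SD. Fos lay at 1.47 to 1.53 in the 3 posterior sections and at most 1.17 in the anterior sections; no gene shown passed the adjusted test.

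Whether the posterior against anterior difference of the Foxp2 layer 6 neurons differed from that of the Rorb neurons was tested as an interaction. None of 287 genes passed with edgeR (0%), and 36 had an unadjusted p under 0.05. The smallest adjusted p was 0.104, for Rspo1 and Cabp7. Cabp7 averaged 0.889 ± 0.142 transcripts per cell in posterior and 0.785 ± 0.0721 in anterior sections of the Foxp2 layer 6 neurons, against 1.97 ± 0.542 and 0.655 ± 0.0352 in the Rorb neurons (SD, n = 3 posterior and 2 anterior; interaction −1.22 ± 0.27). Rspo1 averaged 0.136 in posterior and 0.0821 in anterior sections of the Foxp2 layer 6 neurons, and 1.40 and 1.29 in the Rorb neurons (0.82 ± 0.18). In anterior replicate 2 the Rspo1 level of the Foxp2 layer 6 neurons was 0.0531, under the control probe bound of 0.0668. The size of this interaction is therefore uncertain. Myl4, Garnl3 and Calb1 came next, at 0.37, 0.28 and 0.47. DESeq2 called 19 genes, 18 with a positive interaction and only Cabp7 with a negative one, and left 124 adjusted p-values undefined. Leaving out 1 section at a time gave 0 to 6 calls, with 6 without anterior replicate 1, 2 without anterior replicate 2 and 2 without posterior replicate 4, and Cabp7 was called in those 3.

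The share of Foxp2 layer 6 neurons among Slc17a7 neurons was 9.09% and 9.33% in the anterior, 9.96% and 9.76% in the intermediate and 8.48%, 8.02% and 9.44% in the posterior sections. The Wilson 95% interval was 7.53 to 8.54% for the lowest section, posterior replicate 3, and 9.42 to 10.5% for the highest, intermediate replicate 1, for counting error only. The posterior mean was 8.65 ± 0.727% and the anterior mean 9.21 ± 0.168% (SD, n = 3 and 2). The difference of −0.561 percentage points was within the spread of the posterior sections (two-sided exact permutation test, p = 0.4). With 10 relabellings that test cannot go below 0.1. A smaller number of cells and fewer transcripts per cell cannot be told apart in a class cut by transcript counts.

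Within the class, 132 genes outside the rule had at least 0.5 transcripts per cell, and their variation between cells of 1 section was estimated beyond counting error, given each cell's total. The 10 most variable were Opalin (a coefficient of variation of 320%), Gjc3 (185%), Cdh13 (162%), Rxfp1 (161%), Cpne4 (160%), Plcxd2 (156%), Sema6a (155%), Cux2 (149%), Cntnap4 (149%) and Rspo2 (143%). Opalin, a myelin membrane protein, and Gjc3, a connexin of oligodendrocytes, belong to another cell type, and their counts went together (median r = 0.71 over the 7 sections). The least variable were Anks1b (8.75%), the CDK5 activator Cdk5r1 (12.0%), Gng13 (16.6%), the phospholipase Plcb1 (18.8%) and the synaptotagmin Syt5 (18.9%). Tle4 (25.3%), Sox5 (24.1%) and Garnl3 (24.1%) were nearer to the least variable genes. Across cells, Nxph3 went with Cdh13 (r = 0.40), Sla (0.39) and Sdk2 (0.39) and against Rims3 (−0.48), Lamp5 (−0.44) and Arc (−0.39). These values are medians over the 7 sections of 885 to 1113 cells, which share section and depth, among 8646 gene pairs, and are given with no test.

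Ordered by Nxph3, a split chosen after these gene pairs had been seen, 1589 cells held 0 to 1, 1716 held 2 to 4, 2106 held 5 to 9 and 1570 held 10 to 42 transcripts of Nxph3. Median depth was 489, 475, 512.5 and 587.5 transcripts, so genes are given per 1000 transcripts of a cell, as means over the 7 sections with their SD. Sla stood at 0.343 ± 0.0618, 1.13 ± 0.121, 2.14 ± 0.176 and 3.19 ± 0.24 from the lowest to the highest group, and Cdh13 at 1.33 ± 0.171, 1.85 ± 0.335, 2.44 ± 0.143 and 5.15 ± 0.602. Lamp5 stood at 10.4 ± 0.967, 6.65 ± 0.865, 4.15 ± 0.483 and 2.41 ± 0.517, and Rims3, a presynaptic active zone protein, at 14 ± 1.18, 10.4 ± 0.631, 7.59 ± 0.623 and 5.06 ± 0.236. Each of these 4 genes moved in 1 direction through the groups, and the highest group lay on the same side of the lowest in 7 of 7 sections. These genes had been picked for their correlation with Nxph3 in the same cells and sections, so their direction here adds no separate support. Tle4 stayed level, with 14.1 ± 0.919, 14 ± 0.890, 14.1 ± 0.629 and 13.8 ± 0.439.

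Of 139 genes compared between cells with at least 10 and cells with at most 1 Nxph3 transcript, Sla differed most (3.19 against 0.343 per 1000 transcripts), followed by Cntnap4 (2.80 against 0.570), Ramp3 (3.21 against 0.757), Cdh13, Plcxd3 (5.64 against 1.53) and Rspo2 (1.94 against 0.551). At the other end, after Lamp5, stood the cadherin Cdh20 (0.713 against 2.02), the potassium channel Kcnh5 (1.78 against 5.02), Syndig1 (1.30 against 3.61), Rims3 and parvalbumin Pvalb (1.06 against 2.56). Arc (26.4 against 46.4) and Foxp1 (6.84 against 12.0) were also lower. Of the rule's own genes, Rprm stood at 30.2 against 12.7, Cplx3 at 0.974 against 0.288, Syt6 at 7.87 against 11.4 and Foxp2 at 15.7 against 14.8. Garnl3 was 32.3 against 33.0, higher in 2 of 7 sections. Among the genes outside the rule named here as higher with Nxph3, Cdh13, Plcxd3, Cntnap4 and Rspo2 averaged more in the Cplx3 neurons. They averaged 5.45, 2.56, 1.254 and 1.38 transcripts per cell there, against 1.45, 1.88, 0.879 and 0.596 in the Foxp2 layer 6 neurons. Sla and Ramp3 went the other way, at 0.875 and 0.545 in the Cplx3 and 0.948 and 1.14 in the Foxp2 layer 6 neurons. Lamp5 and Rims3 had their lowest mean level of the 4 classes in the Cplx3 neurons, at 0.624 and 1.64 transcripts per cell. The 4 groups occurred in every section, with shares of 17.8 to 25.6%, 22.5 to 26.8%, 27.4 to 32.8% and 20.9 to 26.4% from the lowest to the highest Nxph3 group. This is a description of cells of the same sections, with no test.

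**Figure D5:**
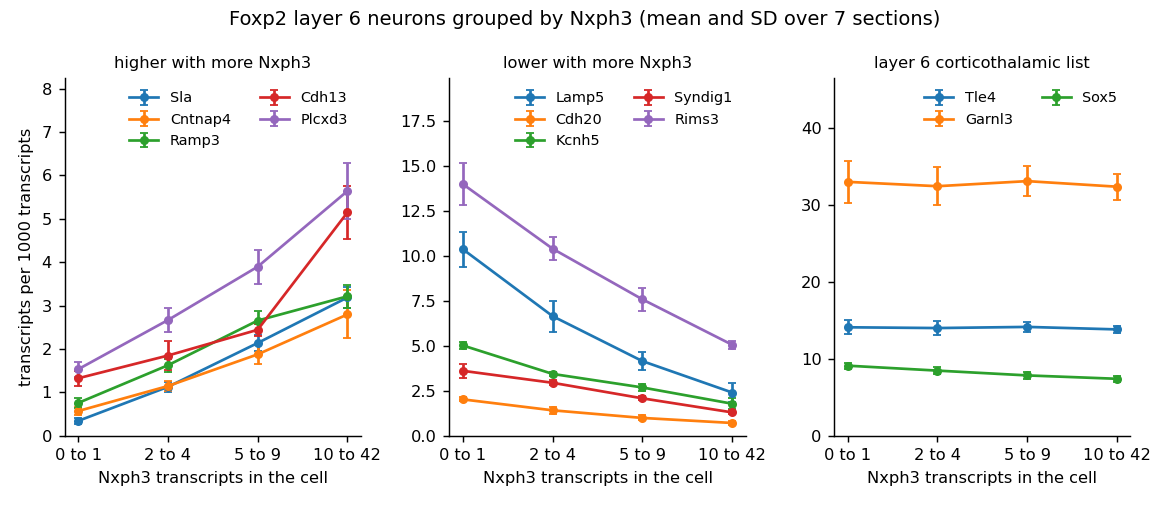
Transcripts per 1000 transcripts of a cell (vertical axis) in Foxp2 layer 6 neurons grouped by their Nxph3 count (horizontal axis); points are means over the 7 sections and bars their SD. Sla, Cdh13 and Ramp3 were higher, and Lamp5, Rims3 and Kcnh5 lower, in cells with more Nxph3, whereas Tle4 and Garnl3 stayed level.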

How the data were processed

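Single RNA molecules were imaged by Xenium in 7 hemisections. The authors deposited a table of transcript counts, whole numbers for every gene and cell, whose sums equalled the deposited total of each cell in 100% of cells. The deposited cell table also holds a normalised score (SCT totals), which was not used. Per the submitters' processing notes, Seurat was used; its version, the segmentation method and the filters on cells, if any, were not given in the sources used here. Of 297 symbols, 296 matched RefSeq.

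Cells were joined to their section by barcode, and the rule and all classes were applied to raw counts. Members, classes and gene lists were chosen with earlier results of these data known. Counts were summed per section and class, filtered with filterByExpr, scaled by TMM and fitted with edgeR 4.0.16 and limma 3.58.1 (R 4.3.3), with Benjamini-Hochberg adjustment at 0.05 over all genes tested. DESeq2 1.42.0 was an alternative. Other steps used Python 3.11.15, numpy 2.4.6, pandas 2.3.3, scipy 1.17.1 and matplotlib 3.10.9. The fits were tested on simulated data.

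Other alternatives were library size scaling, no filter on low counts, other Foxp2 thresholds (3 and 6), other blocks, slide as a term, glial and vascular genes left out, and each section left out. Genes were named by rule: the 10 largest differences in each direction among passing genes that differed the same way in all 7 sections, up to 4 per list, and the 5 smallest p where fewer than 5 passed.

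Sections share replicate numbers. Same-numbered sections deviated together over 286 genes: r = 0.409 for anterior and intermediate replicate 1, and for both replicates 2 (mirror images of each other with 2 sections per position), 0.153 for anterior and posterior replicate 1 and 0.308 for intermediate and posterior replicate 1. Sections with different numbers had r of −0.409 to 0.233. Anterior and intermediate replicate 2 reached 0.221 and 0.233 with posterior replicate 3, above the 0.153 of a same-numbered pair. The labels do not give a pairing, and these correlations do not settle it. The replicate number was used as a block in an alternative fit only, not in the main position fit.

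For 1 gene of the layer 2 to 4 list the result is not reported here.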

Additional observations from a re-analysis of the deposited data

Results flagged for a closer look

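Among 60 levels of named genes tested over the 7 sections of the Foxp2 layer 6 neurons, 4 had a section that stood apart from the others by Dixon's criterion. Chance alone flags about 1 in 20 such groups. Nxph3 was highest in posterior replicate 1, at 6.68 transcripts per cell against a median of 5.98 over the sections. Ramp3 was lowest in anterior replicate 1, at 1.0 against a median of 1.16. Vat1l was highest in posterior replicate 3, at 0.338 against a median of 0.250. Fmod, a proteoglycan of connective tissue, was highest in intermediate replicate 2, at 0.0340 against a median of 0.0116, and all its levels were under the control probe bound.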

How the results depend on the processing

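The counts of genes differing from the Cplx3, Fezf2 and Rorb neurons kept within 1.5 times their values under every alternative tried; leaving out each section in turn gave 226 to 235, 226 to 238 and 250 to 255. Without the section block, which is the fit with no replicate block here, they were 228, 232 and 251. The share of these genes that were higher moved most with the scaling, to 27.3%, 29.7% and 26.9% under library size. Between posterior and anterior sections, the replicate block gave 1 call (Plcxd3) in place of 0, with 1 residual degree of freedom, and leaving out each section gave 0 to 1. For the interaction with the Rorb neurons, DESeq2 gave 19 calls in place of 0, and leaving out each section gave 0 to 6; the cause was not tested. The share difference kept its sign throughout: leaving out each section gave −0.959 to −0.247 percentage points, Foxp2 thresholds of 3 and 6 gave −0.687 and −0.340, and thinning each cell to 100 transcripts, which kept 269 of the neurons, gave −0.365. On the first slide alone, an alternative chosen after seeing the data, 0 genes passed by position. Levels at or under the control probe bound have no readable fold.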
